A study of Homo sapiens with 2 samples.

Results

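Interferon response and RNA sensing genes were followed in COLO320, a human colorectal carcinoma line with neuroendocrine traits, after siRNA against CDX2, a homeobox factor of the intestinal lineage. The 57 genes were taken as a fixed list of sensors of foreign nucleic acid, signalling proteins and antiviral effectors, and were matched by gene symbol. Of these, 56 had a feature on the array, and 39 had a ratio on both arrays and were tested, among 12842 genes tested in all. STAT2 was not analysed here. Cells received 100 nM of CDX2 siRNA 6 or of CDX2 siRNA 8, or a non-targeting siRNA as control, and RNA was taken 24 h after the medium was changed. One two-colour Agilent array per CDX2 siRNA compared that RNA (Cy5) with control RNA (Cy3), so each value is a log2 ratio of CDX2 siRNA over control. The 2 siRNAs are the replicates (n = 2 throughout), and nothing in the labels says that they came from separate cultures. Both arrays may also share control RNA, so their ratios may not be independent. A p-value here sets the mean ratio against the spread between the arrays, moderated by limma over all genes. That spread may be technical. Every sample, controls included, came from cells transfected with an siRNA, no array had the dyes exchanged, and the table holds ratios without signal intensities. The number of arrays limits the precision.

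Cells detect foreign RNA with the cytoplasmic helicases RIG-I and MDA5, which signal through the mitochondrial protein MAVS, and with Toll-like receptors in endosomes, which signal through the adaptors MyD88 and TRIF. Both routes activate interferon regulatory factors and the transcription of type I interferon. Secreted interferon binds its receptor, Janus kinases phosphorylate STAT proteins, and the STAT complex with IRF9 binds the interferon-stimulated response element in the promoters of antiviral genes. Short double-stranded RNA of the kind used for silencing is itself a possible ligand of several of these sensors.

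The core of the interferon-stimulated response element was searched as GAAA-NN-GAAA (N is any base, and the hyphens only set off the parts) on both strands, from 250 bases before to 50 bases after each gene start, in RefSeq promoters of build GRCh38.p14. Promoters were found for 45 of the 57 genes, and 20 of the 45 (44.4%) held the motif in at least 1 of their windows, against 4.38% of all 27305 genes with a promoter. Adjacent matches can overlap. The promoters below are shown whole because these genes had large ratios in opposite directions or, for IFIH1, because the gene is both a sensor and a holder of 3 matches. Capitals mark the motif, and each sequence is read 5′ to 3′ in the direction of the gene.
BST2 (chr19:17405581-17405880, minus strand): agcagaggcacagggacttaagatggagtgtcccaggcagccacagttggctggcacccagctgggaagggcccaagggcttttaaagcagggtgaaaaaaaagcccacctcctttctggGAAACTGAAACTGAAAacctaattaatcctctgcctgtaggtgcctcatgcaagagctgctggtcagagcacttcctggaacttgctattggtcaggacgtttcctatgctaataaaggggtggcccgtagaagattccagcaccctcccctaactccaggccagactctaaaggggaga
ISG20 (chr15:88638766-88639065, plus strand): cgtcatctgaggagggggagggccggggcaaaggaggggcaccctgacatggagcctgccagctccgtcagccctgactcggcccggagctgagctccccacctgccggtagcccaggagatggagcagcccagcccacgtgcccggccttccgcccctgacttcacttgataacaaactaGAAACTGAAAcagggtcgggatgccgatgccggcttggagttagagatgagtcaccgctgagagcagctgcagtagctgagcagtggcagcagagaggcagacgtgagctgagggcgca
IFI44 (chr1:78649539-78649838, plus strand): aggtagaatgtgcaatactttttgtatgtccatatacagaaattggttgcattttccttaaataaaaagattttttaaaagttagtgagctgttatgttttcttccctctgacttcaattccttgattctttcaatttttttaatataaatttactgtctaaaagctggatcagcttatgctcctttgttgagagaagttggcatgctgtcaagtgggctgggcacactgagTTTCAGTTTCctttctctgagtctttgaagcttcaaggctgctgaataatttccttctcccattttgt
IFIH1 (chr2:162318635-162318934, minus strand): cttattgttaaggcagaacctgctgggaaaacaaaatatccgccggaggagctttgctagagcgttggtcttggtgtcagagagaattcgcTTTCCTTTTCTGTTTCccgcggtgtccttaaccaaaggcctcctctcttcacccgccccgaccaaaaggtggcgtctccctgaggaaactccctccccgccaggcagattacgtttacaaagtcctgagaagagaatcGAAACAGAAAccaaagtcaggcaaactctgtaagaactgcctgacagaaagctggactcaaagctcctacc

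The stretches below hold the motif with 10 bases on either side in the other tested genes whose promoter has it, again with the motif in capitals. The window shown of OAS3 holds 1 further match, as does that of IFI6, and MX1 has another in a second promoter window.
TLR3 (chr4:186069142-186069171, plus strand): caagctttacTTTCACTTTCgagagtgccg
MYD88 (chr3:38138590-38138619, plus strand): gcgcttctcgGAAAGCGAAAgccggcgggg
SOCS1 (chr16:11256298-11256327, minus strand): cgccaccgcgGAAAGAGAAAccaaaagtgg
ISG15 (chr1:1013374-1013409, plus strand): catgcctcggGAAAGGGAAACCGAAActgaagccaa
IFI6 (chr1:27672288-27672358, minus strand): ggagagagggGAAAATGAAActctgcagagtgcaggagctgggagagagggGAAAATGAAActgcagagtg
IFI27 (chr14:94110618-94110660, plus strand): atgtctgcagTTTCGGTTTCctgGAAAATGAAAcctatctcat
IFIT1 (chr10:89392497-89392539, plus strand): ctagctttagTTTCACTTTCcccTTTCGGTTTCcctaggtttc
IFIT5 (chr10:89414513-89414583, plus strand): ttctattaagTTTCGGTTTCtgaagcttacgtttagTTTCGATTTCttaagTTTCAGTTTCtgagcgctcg
IFITM1 (chr11:313990-314053, plus strand): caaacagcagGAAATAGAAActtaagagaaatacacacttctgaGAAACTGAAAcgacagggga
IFITM3 (chr11:320876-320922, minus strand): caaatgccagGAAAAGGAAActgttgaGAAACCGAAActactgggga
MX1 (chr21:41420559-41420588, plus strand): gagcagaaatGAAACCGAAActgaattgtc
OAS3 (chr12:112938321-112938350, plus strand): agaaagaaacGAAACTGAAAgcagggaatt
EIF2AK2 (chr2:37156967-37156996, minus strand): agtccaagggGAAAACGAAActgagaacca

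The targeted gene was measured first. CDX2 had a log2 ratio of -1.44 with siRNA 6 and -1.41 with siRNA 8, so its transcript was lower with both siRNAs (mean -1.42 ± 0.019, SD, limma adjusted p = 0.00164).

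With CDX2 siRNA, 6 of the 39 tested genes were higher and 15 were lower than in control cells, and 18 did not pass (limma, adjusted p under 0.05 over all genes). These are 15.4% higher and 38.5% lower, against 12.1% called higher and 28.6% called lower among all genes tested, a difference that was not tested. The median log2 ratio of the 39 genes was -0.23, beside -0.13 over all genes. At least 1.5-fold on both arrays, 4 of the 39 genes were higher, beside 7.80% of all genes, and 10 were lower, beside 18.4%. With deposited values of exactly 0 kept as ratios of 0, limma called 0 of 56 of these genes, with 8 higher and 11 lower at an unadjusted p under 0.05, and 0 of all 18334 genes, where 5218 had such a p.

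Interferon genes are also active in blood cells, whose markers were therefore read as ratios. Of 5 such markers, PTPRC, CD14 and CD3E were lower (mean log2 ratios from -1.07 to -0.92, limma adjusted p-values from 0.00408 to 0.0385), and CD68 and ITGAM had no ratio. Their part in the values of the interferon genes was not tested, and their levels are unknown.

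The genes that rose were the restriction factors BST2, SAMHD1 and MX1, the sensor TLR3, the adaptor TICAM1 and the receptor chain IFNGR1. Among those that fell were the helicases RIGI, IFIH1 and DHX58, the factors IRF1, IRF3 and IRF9, the adaptor MYD88, the receptor chain IFNAR1 and the feedback inhibitor SOCS1. The effectors that fell were ISG20, IFI44, IFI27, IFIT2, MX2 and IFI6.

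**Figure D1:**
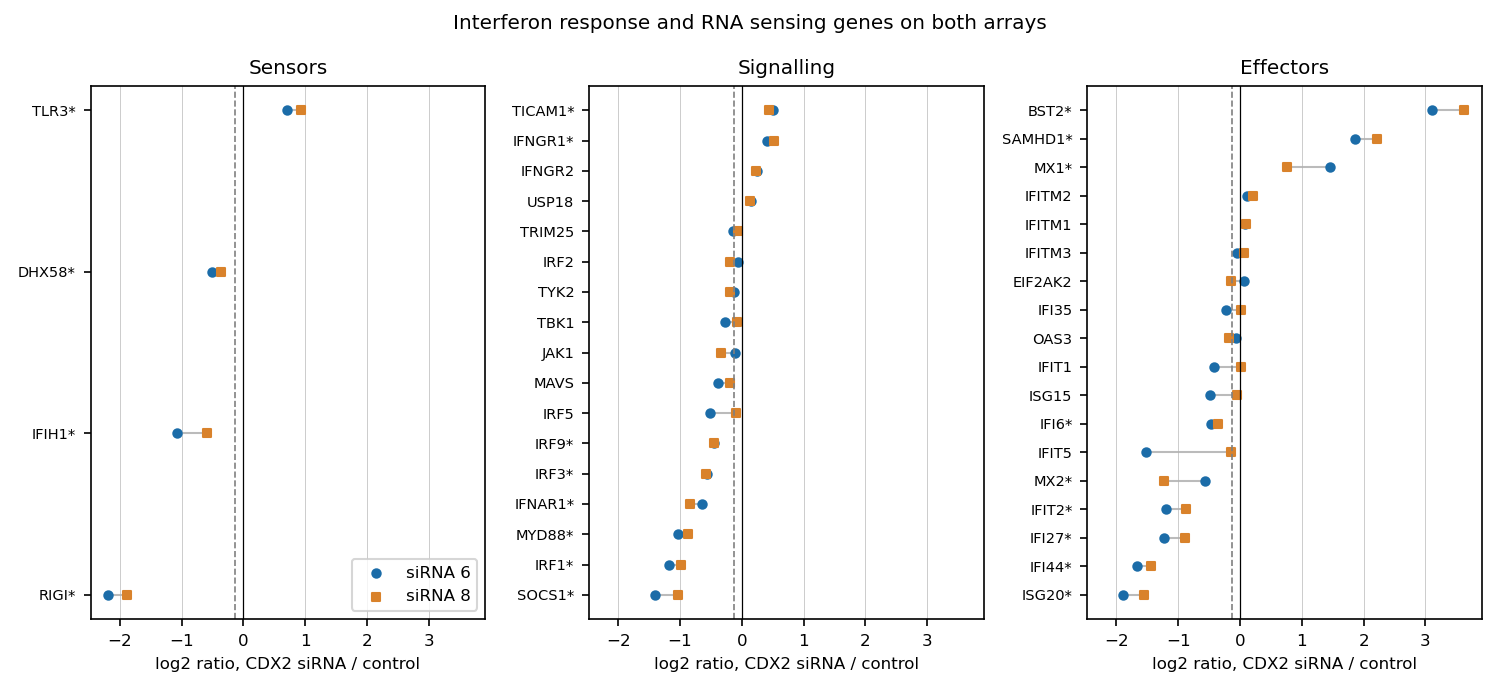
Log2 ratio of CDX2 siRNA over control for the 39 tested genes, with 1 circle for siRNA 6 and 1 square for siRNA 8, in panels for sensors, signalling and effectors. An asterisk marks genes past a limma adjusted p of 0.05, and the dashed line is the median of all genes at -0.13. BST2 stands farthest to the right and RIGI farthest to the left.

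**Figure D2:**
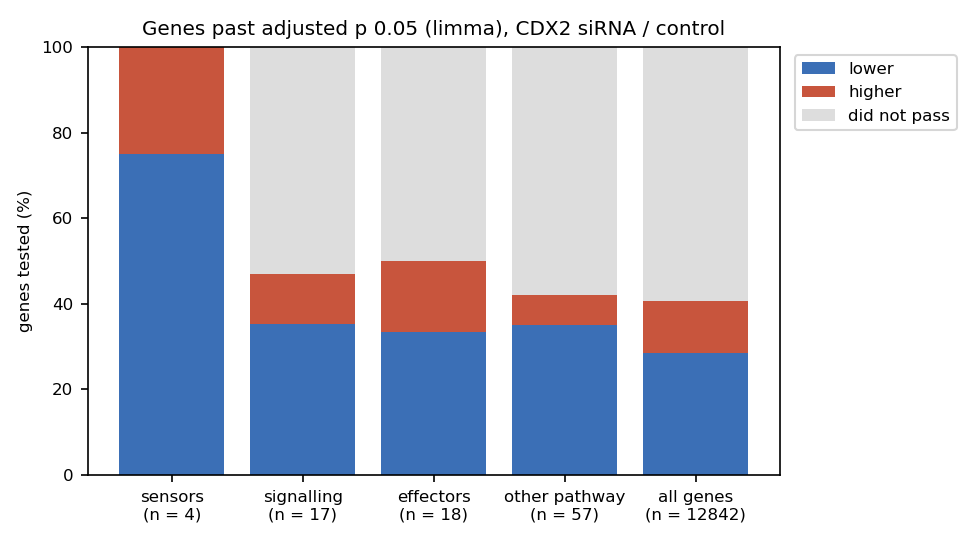
Percentage of tested genes called lower, called higher or not past a limma adjusted p of 0.05, for sensors, signalling genes, effectors, other genes of the pathway and all 12842 genes. All 4 sensors with a ratio passed, and 40.7% of all genes did.

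All 4 sensors with a ratio passed, 3 lower and 1 higher, beside 28.6% lower and 12.1% higher among all genes. A further 3 sensors had no ratio. RIGI encodes RIG-I, the helicase that recognises short double-stranded RNA with a 5′ triphosphate. Its log2 ratios were -2.18 (siRNA 6) and -1.89 (siRNA 8). RIGI thus stood at 22.0% of control with siRNA 6 and 27.1% with siRNA 8 (mean log2 ratio -2.04 ± 0.21, SD, n = 2, limma adjusted p = 0.00149). It lay at percentile 1.45 of all genes tested, which is the lowest place of the 39 genes. Its promoter window did not hold the letters of the motif.

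IFIH1 encodes MDA5, the helicase that recognises long double-stranded RNA. It had a log2 ratio of -1.08 with siRNA 6 and -0.60 with siRNA 8 (mean -0.84 ± 0.34, SD, limma adjusted p = 0.0188). The fall was larger on the array of siRNA 6, at 47.3% of control, than on that of siRNA 8, at 66.1%. DHX58 encodes LGP2, a helicase without signalling domains that modulates the other helicases. Its log2 ratios were -0.51 (siRNA 6) and -0.36 (siRNA 8) (mean -0.43 ± 0.11, SD, limma adjusted p = 0.0306). The 3 helicases were lower on both arrays, although DHX58 did not pass once each array was centred on its median (limma adjusted p = 0.0679).

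TLR3, the endosomal receptor of double-stranded RNA, went the other way. Its log2 ratios were 0.71 (siRNA 6) and 0.94 (siRNA 8), a mean 1.77-fold above control (0.82 ± 0.16, SD, limma adjusted p = 0.00762). TLR3 was therefore higher on both arrays. TLR7 and TLR8, receptors of single-stranded RNA, and TLR9, a receptor of DNA, were at exactly 0 in every feature on both arrays, which was read as not measured. RIGI, IFIH1, DHX58 and TLR3 each rested on 1 feature.

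The adaptors of the Toll-like receptors moved in opposite directions. MYD88, the adaptor of most of these receptors, had a log2 ratio of -1.04 with siRNA 6 and -0.87 with siRNA 8 (mean -0.95 ± 0.12, SD, limma adjusted p = 0.00437). It was 1.94-fold lower than control, from 1 of 2 features, since the second was listed at 0 on each array. TICAM1 encodes TRIF, the adaptor of TLR3, and its 2 features averaged 0.51 (siRNA 6) and 0.44 (siRNA 8) (limma adjusted p = 0.0205). Its features disagreed, since one gave 0.95 and 0.76 and the other 0.07 and 0.12 for siRNA 6 and siRNA 8. With the lower feature alone, as the median rule takes it, TICAM1 stood at 0.09 and did not pass (limma adjusted p = 0.461).

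MAVS, TBK1 and TRIM25, which act between the helicases and the interferon regulatory factors or on RIG-I itself, did not pass. MAVS, the adaptor on mitochondria, had log2 ratios of -0.39 with siRNA 6 and -0.20 with siRNA 8 (limma adjusted p = 0.0876). TBK1, a kinase that phosphorylates IRF3, had -0.27 and -0.08, and TRIM25, a ubiquitin ligase that activates RIG-I, had -0.14 and -0.06 for siRNA 6 and siRNA 8. These values lay near the median of all genes, and IKBKE, a kinase related to TBK1, had no ratio. At the same step in the wider list described further on, TRAF3, a ubiquitin ligase, was lower at a mean of -0.81 (limma adjusted p = 0.0227) and TANK, a scaffold of TBK1, at a mean of -0.47 (limma adjusted p = 0.0205). The features of TRAF3 differed, at -0.28 and -0.30 in one and -0.83 and -1.84 in the other for siRNA 6 and siRNA 8. AZI2 (mean -0.41, limma adjusted p = 0.130) and TRAF6 (mean 0.09, limma adjusted p = 0.472) of that list did not pass.

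Among the interferon regulatory factors with a ratio, IRF1, IRF3 and IRF9 passed. IRF1, a factor induced by interferon gamma, had a log2 ratio of -1.17 with siRNA 6 and -0.98 with siRNA 8, 2.11-fold below control (mean -1.07 ± 0.14, SD, limma adjusted p = 0.00367). IRF3, the factor activated behind both RNA sensing routes, had -0.57 with siRNA 6 and -0.58 with siRNA 8 (mean -0.57 ± 0.0074, SD, limma adjusted p = 0.0120). IRF9, the DNA-binding partner of the STAT complex, had -0.44 with siRNA 6 and -0.45 with siRNA 8 (mean -0.45 ± 0.0073, SD, limma adjusted p = 0.0222). All of them were lower on both arrays, but IRF9 missed the threshold once arrays were centred on their medians (limma adjusted p = 0.0507). IRF2, a repressor of interferon responses, stood at -0.13 (mean) and IRF5 at -0.51 with siRNA 6 and -0.09 with siRNA 8, and neither passed. IRF4, IRF7 and IRF8 were at exactly 0 in every feature.

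The receptor chains also differed in direction. IFNAR1, a chain of the type I interferon receptor, had log2 ratios of -0.64 with siRNA 6 and -0.84 with siRNA 8, or 59.9% of control (mean -0.74 ± 0.15, SD, limma adjusted p = 0.00925). IFNGR1, the ligand-binding chain of the interferon gamma receptor, had 0.41 and 0.52, or 138% of control (mean 0.46 ± 0.079, SD, limma adjusted p = 0.0234). IFNGR1 did not pass in limma's treat against a fold of 1.2 (adjusted p = 0.137). So IFNAR1 was lower and IFNGR1 higher on both arrays, although the values come from different probes and their levels cannot be compared. IFNGR2, the second chain of the gamma receptor, had 0.25 with siRNA 6 and 0.23 with siRNA 8 and did not pass (limma adjusted p = 0.0970). IFNAR2 had no ratio. The receptor kinases JAK1 (mean -0.23) and TYK2 (mean -0.15) did not pass. A further Janus kinase, JAK2 of the wider list described further on, was lower, with -0.98 for siRNA 6 and -0.74 for siRNA 8. Its mean was -0.86 (limma adjusted p = 0.00719), and its 10 features were negative on both arrays.

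Of the feedback inhibitors, SOCS1, which blocks Janus kinases, fell. Its log2 ratios were -1.40 (siRNA 6) and -1.03 (siRNA 8) (mean -1.22 ± 0.26, SD, limma adjusted p = 0.00490). SOCS1 was 2.32-fold below control, and both of its features were negative, one at -0.94 and -0.47 and the other at -1.86 and -1.58 for siRNA 6 and siRNA 8. USP18, a protease that removes ISG15 from proteins and damps the type I receptor, had 0.16 and 0.14 and did not pass. SOCS3 had no usable feature. In all, 2 of 17 signalling genes with a ratio rose (11.8%), 6 fell (35.3%) and 9 did not pass, beside 12.1% higher and 28.6% lower among all genes. The means of those that did not pass lay between -0.30 and 0.24.

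**Figure D3:**
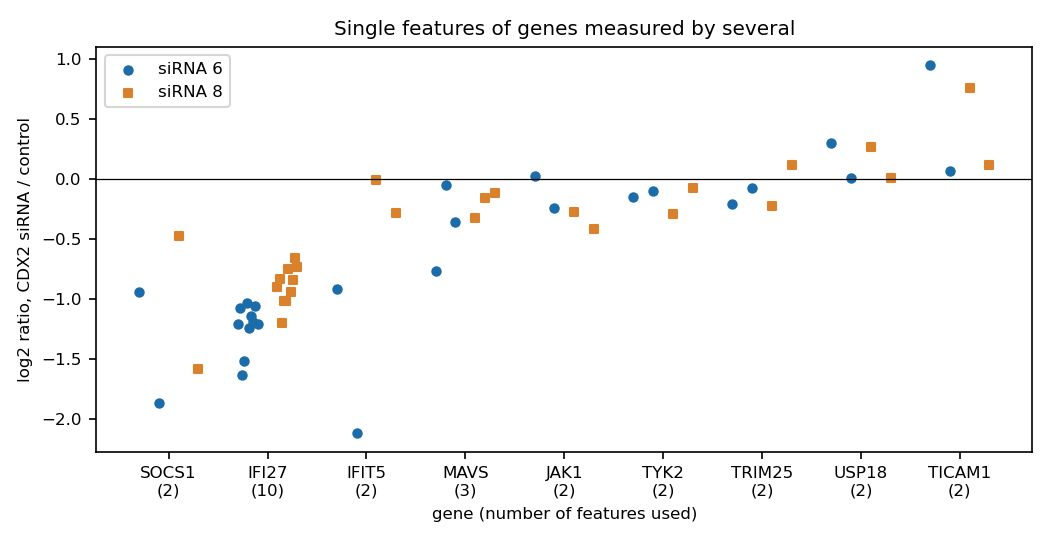
Log2 ratios of CDX2 siRNA over control in the single features of the 9 tested genes with more than 1 usable feature, circles for siRNA 6 and squares for siRNA 8. The 10 features of IFI27 are all below 0, while the 2 features of SOCS1, of IFIT5 and of TICAM1 lie apart.

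Of 18 effectors with a ratio, 3 rose (16.7%), 6 fell (33.3%) and 9 did not pass, beside 12.1% higher and 28.6% lower among all genes. BST2 rose most. BST2 encodes tetherin, a membrane protein that holds budding virus particles at the cell surface. Its log2 ratios were 3.11 (siRNA 6) and 3.62 (siRNA 8), or 10.3-fold above control (mean 3.36 ± 0.37, SD, n = 2, limma adjusted p = 0.00115). It lay at percentile 97.7 of all genes, the highest place of the 39 genes, and rested on 1 feature. SAMHD1, an enzyme that depletes the nucleotides needed by retroviruses, had 1.86 with siRNA 6 and 2.22 with siRNA 8 (mean 2.04 ± 0.25, SD, limma adjusted p = 0.00166). SAMHD1 was thus 4.12-fold above control, also from 1 feature.

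The dynamin-like GTPases MX1 and MX2, which block virus replication in the cytoplasm and at the nucleus, moved apart. MX1 had a log2 ratio of 1.46 with siRNA 6 and 0.75 with siRNA 8 (mean 1.10 ± 0.50, SD, limma adjusted p = 0.0191). MX2 had -0.57 with siRNA 6 and -1.22 with siRNA 8 (mean -0.90 ± 0.46, SD, limma adjusted p = 0.0271). MX1 was higher and MX2 lower on both arrays, each from 1 feature and each with a wide spread between the siRNAs. MX2 did not pass in limma's treat against a fold of 1.2 (adjusted p = 0.0557). A second feature of MX2 was at exactly 0 on both arrays.

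ISG20, an exonuclease of single-stranded RNA, fell most among the effectors. Its log2 ratios were -1.89 (siRNA 6) and -1.56 (siRNA 8), or 30.2% of control (mean -1.73 ± 0.24, SD, limma adjusted p = 0.00212). IFI44, a cytoplasmic protein of the interferon response, had -1.66 and -1.45, or 34.0% of control (mean -1.56 ± 0.15, SD, limma adjusted p = 0.00184). Both genes rested on 1 feature and were lower on both arrays.

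IFI27, a small membrane protein of mitochondria, was the member with the most features. The 10 features with a ratio on both arrays ran from -1.63 to -1.03 with siRNA 6, with a median of -1.20, and from -1.20 to -0.66 with siRNA 8, with a median of -0.87. Every one of these features was negative on both arrays, and the mean was -1.06 ± 0.24 (SD, n = 2 arrays, limma adjusted p = 0.00612). Over these features the SD came to 0.20 (siRNA 6) and 0.16 (siRNA 8). These are spreads of single features, and the SD of 0.24 is that of the array means, so they are not like measures. Each of these features was more negative with siRNA 6 than with siRNA 8. Whether they are repeat spots of 1 probe is not given in the tables used here.

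The IFIT proteins bind viral RNA or translation factors. IFIT2 had a log2 ratio of -1.20 with siRNA 6 and -0.87 with siRNA 8 (mean -1.04 ± 0.23, SD, limma adjusted p = 0.00617), from 1 of 2 features. IFIT1 had -0.42 and 0.02 and IFIT5 had -1.52 and -0.14 for siRNA 6 and siRNA 8, and neither passed. IFIT5 differed most between the siRNAs, and its features also differed, at -0.92 and -2.12 with siRNA 6. IFIT3 had no ratio.

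IFI6, an inhibitor of apoptosis and of virus replication, fell with log2 ratios of -0.47 with siRNA 6 and -0.36 with siRNA 8 (limma adjusted p = 0.0306). This rested on 1 of 2 features, since the second was at exactly 0 on both arrays. ISG15, a ubiquitin-like modifier, had -0.49 and -0.05, and EIF2AK2, which encodes the RNA-activated kinase PKR, had 0.06 and -0.15. The membrane proteins IFITM1, IFITM2 and IFITM3, which block virus entry, had means of 0.08, 0.16 and 0.01, and their probes may share signal because these paralogs are nearly alike. OAS3, a synthetase of the RNase L activator, had a mean of -0.12 and IFI35 one of -0.11. None of ISG15, EIF2AK2, the IFITM genes, OAS3 and IFI35 passed, with limma adjusted p-values from 0.208 to 0.963.

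A further 8 effectors had no ratio, namely IFI16, IFI44L, IFIT3, OAS1, OAS2, OASL, RSAD2 and XAF1. In all, 17 of the 56 genes on the array (30.4%) had no ratio on both arrays, beside 30.0% of all 18334 genes with a feature. Of the 39 tested genes, 30 rested on 1 feature, and each was measured through 1 accession. A table of ratios does not show whether a gene at 0 was silent in both channels.

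The response element motif printed above was present among genes that rose and among genes that fell. Of 17 tested genes with GAAA-NN-GAAA in a promoter, 3 were higher (TLR3, MX1 and BST2), 7 were lower (IFIH1, MYD88, SOCS1, ISG20, IFI6, IFI27 and IFI44) and 7 did not pass, where 12.1% of all genes were higher and 28.6% lower. Of 15 tested genes whose promoters lacked these letters, 3 were higher, 4 were lower and 8 did not pass. The median log2 ratio was -0.27 with the motif and -0.18 without it. In BST2 the overlapping pair of matches begins 130 bases upstream of the start, in ISG20 the match begins 69 bases upstream, and in IFI44 it begins 18 bases upstream of one of 2 annotated starts. A match is a description of the letters and not of a bound site.

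**Figure D4:**
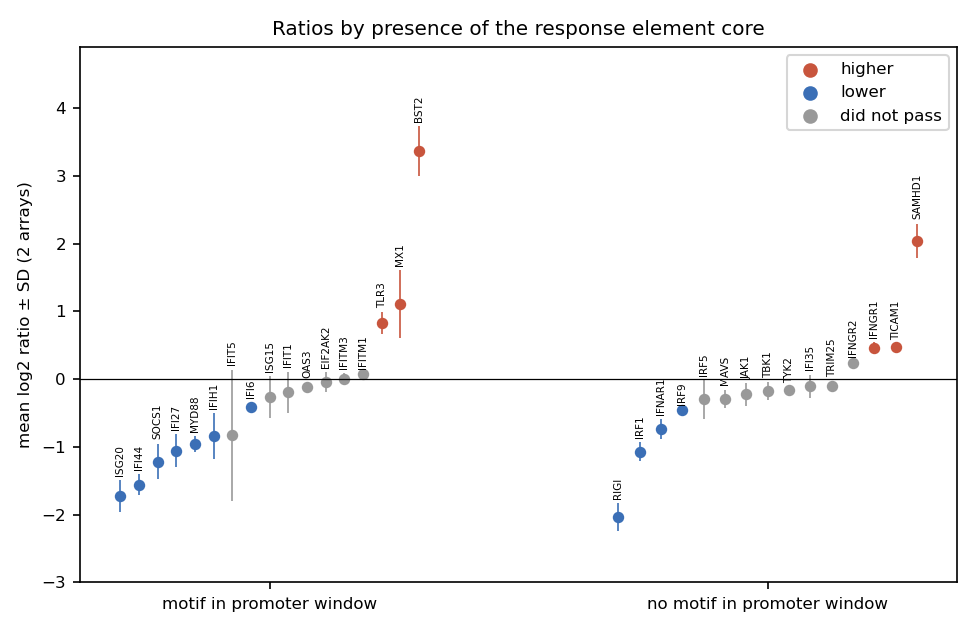
Mean log2 ratio of CDX2 siRNA over control with its SD over 2 arrays, for tested genes with and without GAAA-NN-GAAA in a promoter window, coloured by call. Higher and lower genes occur on both sides, with BST2 and ISG20 at the ends of the side with the motif and SAMHD1 and RIGI at the ends of the other side.

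A wider list of 93 genes of interferon production and response was set beside these members. Of 57 with a ratio, 4 rose, 20 fell and 33 did not pass, beside 12.1% and 28.6% of all genes, and their median log2 ratio was -0.15. The lower ones were led by LGALS3BP, a secreted glycoprotein (-2.10 with siRNA 6 and -1.93 with siRNA 8, limma adjusted p = 0.00118), and TRIM21, a cytosolic antibody receptor (-1.74 and -1.66, limma adjusted p = 0.00129). UNC93B1, which carries Toll-like receptors to endosomes, had -1.66 and -1.72 (limma adjusted p = 0.00129). DTX3L, a ubiquitin ligase, had -1.62 and -1.25 (limma adjusted p = 0.00333). All of them were negative on both arrays.

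The higher ones were ZC3HAV1, TRIM5, DDX60 and IFI30. ZC3HAV1, an antiviral protein that binds viral RNA, had 0.90 with siRNA 6 and 0.93 with siRNA 8 (limma adjusted p = 0.00383), from 1 of 3 features. Another of its features was at -0.62 with siRNA 6 and 0 with siRNA 8, and with such features kept ZC3HAV1 stood at 0.30 and did not pass (limma adjusted p = 0.145). TRIM5, a restriction factor of retroviral capsids, averaged 0.87 (limma adjusted p = 0.00504), but its features lay at 2.18 and 2.14 in one and at -0.58 and -0.26 in the other. DDX60, a helicase that promotes RIG-I signalling, averaged 0.89 (limma adjusted p = 0.00965), with features at 2.21 and 2.56 and at -0.78 and -0.43. So the rise of TRIM5 and of DDX60 rested on 1 of 2 features of opposite sign. IFI30, a lysosomal thiol reductase, had 0.66 and 0.91 (limma adjusted p = 0.00906).

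Of 12 antigen presentation genes with a ratio, a subset taken after the values were seen, 4 fell, beside 28.6% of all genes, and 8 did not pass. Those that fell were the class I transactivator NLRC5 (mean -1.26, limma adjusted p = 0.00200), the class II transactivator CIITA (-1.12 with siRNA 6 and -0.88 with siRNA 8, limma adjusted p = 0.00484), TAPBP (mean -0.61, limma adjusted p = 0.0110) and the immunoproteasome subunit PSMB8 (mean -0.67, limma adjusted p = 0.0105). NLRC5 rested on 1 of 3 features and CIITA on 1 of 4, since the others were at exactly 0 on both arrays. The feature used for CIITA was not a RefSeq mRNA feature. The features of TAPBP differed in sign, with one at 0.14 and 0.11 and the others with a ratio between -1.21 and -0.25. The other 8, among them B2M and the HLA class I genes, had means from -0.11 to 0.30. HLA probes may share signal among near-identical genes. Of the 7 interferon genes in the wider list, 6 had a feature, 5 of these had no ratio, IFNB1 among them, and IFNL2 had -1.66 with siRNA 6 and -1.14 with siRNA 8, a value that its near-identical copy IFNL3 could share.

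**Figure D5:**
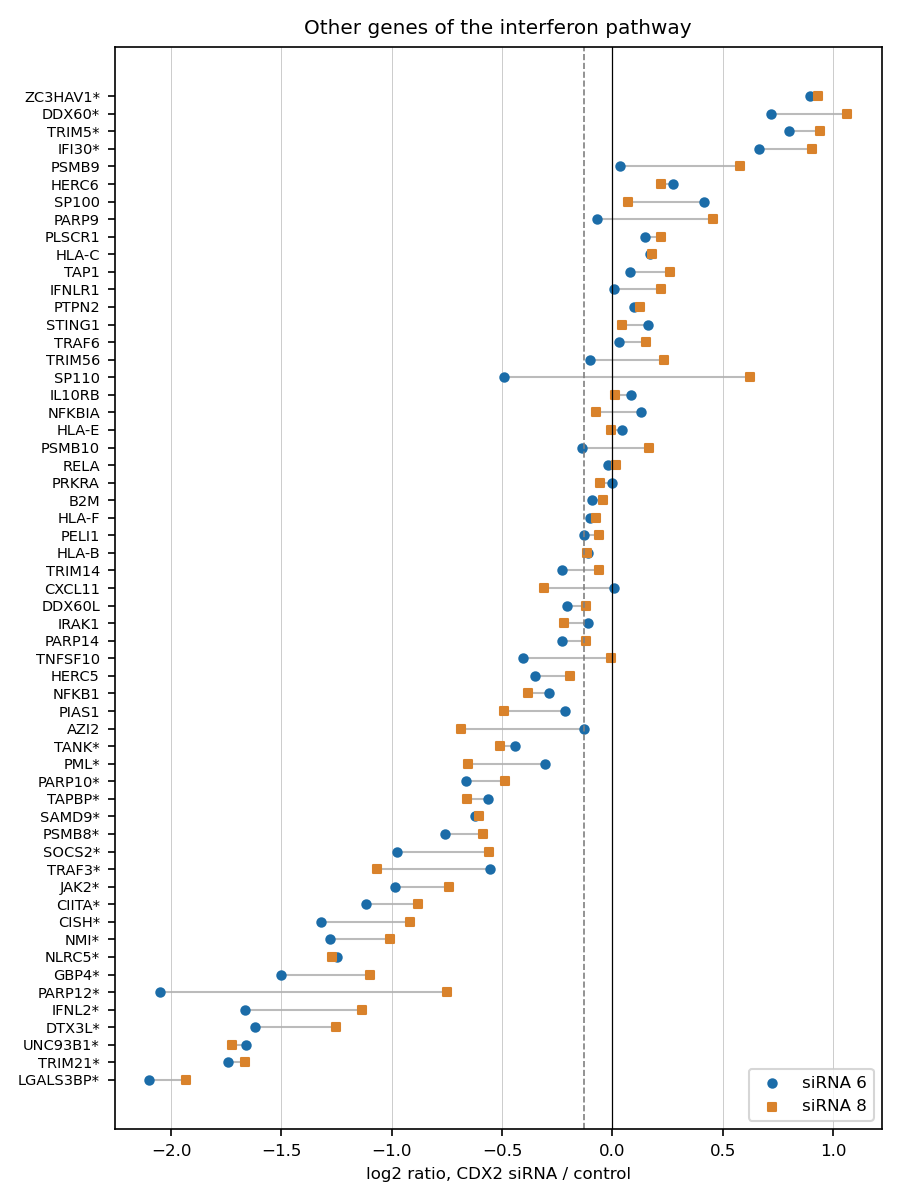
Log2 ratio of CDX2 siRNA over control for the 57 other pathway genes with a ratio, circles for siRNA 6 and squares for siRNA 8, with an asterisk on genes past a limma adjusted p of 0.05. LGALS3BP, TRIM21 and UNC93B1 lie at the low end, and the dashed line is the median of all genes.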

How the data were processed

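The authors deposited 1 log10 ratio per feature and array, Cy5 over Cy3, from Agilent Feature Extraction 9.5.3, per the submitters' processing notes. No source used here writes the log base, which is that tool's own, or the background and dye correction. The values were converted to log2. A value of exactly 0 was read as not measured, which no source states. Of 45015 features, 31332 were paired with 1 gene by the platform annotation, and only these were used. Features with a ratio on each array were averaged per gene.

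All 12842 genes were fitted with limma 3.58.1 in R 4.3.3 (intercept only, eBayes against 0, Benjamini-Hochberg over all genes), with residual and prior degrees of freedom of 1 and 2.87. The fit was also run on simulated data with independent arrays and few changed genes. The arrays here may not be independent, so that run does not vouch for the calls. Promoter windows come from RefSeq tables of build GRCh38.p14, in which TATAAA upstream of the start was more frequent than at the mirrored place on both strands. The members, lists and tests were chosen with earlier results of these data known. Named genes are CDX2, up to 8 passing members per role by the smaller absolute ratio of the 2 arrays, and up to 4 higher and 4 lower of the wider list. Other members and further genes of that list are named with their values only. Alternatives covered centring, scaling, the variance prior, the feature rule, exact zeros, thresholds, the log base and each array alone. No source used here gives the array's genome build.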

Additional observations from a re-analysis of the deposited data

How the results depend on the processing

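Centring, scaling, a robust variance prior, RefSeq mRNA features, a fold of 1.2 in limma's treat, 1.5-fold on both arrays and either array alone kept both counts of the 39 genes within 1.5 times, at 4 to 7 higher and 10 to 15 lower, as did the median of features (lower of a middle pair) and, chosen after seeing the data, features at 0 on 1 array. With exact zeros kept, limma called 0 higher and 0 lower of the 56 genes (8 and 11 at an unadjusted p under 0.05) and 0 and 0 of the 88 other pathway genes (5 and 17), and the median of the 56 was -0.052. In that setting 5218 of 18334 genes had an unadjusted p under 0.05. Read as log2, the deposited values gave a median of -0.068 for the 39 genes. The median of the 39 genes was -0.39 with siRNA 6 alone, beside -0.14 over all genes, and -0.18 with siRNA 8 alone, beside -0.12. With the median of features, 2 other pathway genes were higher, and TRIM5 (-0.42) and DDX60 (-0.61) took the sign of their lower feature. In that setting DDX60 passed as lower (limma adjusted p = 0.0376), and TRIM5 did not pass (limma adjusted p = 0.0749). Treat left 4 of the 39 genes higher and 11 lower. Among the named genes, treat ended the calls of DHX58 (adjusted p = 0.199), IRF9 (0.141), IFNGR1 (0.137), TICAM1 (0.116) and MX2 (0.0557). These and IRF3 were under 1.5-fold on at least 1 array. IFI6 lay outside the genes followed singly here, and its log2 ratios of -0.47 with siRNA 6 and -0.36 with siRNA 8 were under 1.5-fold on both arrays. The counts of lower genes with centring and with treat imply that each of these settings also ended the call of IFI6. No paired analysis was possible because both arrays belong to 1 group. The table holds no intensities, so signal over background is unknown and dim features could not be left out.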

Other observations

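The gamma-activated site, searched as TTC-NNN-GAA, which reads the same on both strands, was in the promoter of 10 of 45 matched genes (22.2%), beside 9.38% of all genes with a promoter. Features at 0 on 1 array only were not used. They included a feature of SOCS3 at -0.29 with siRNA 6 and 0 with siRNA 8, and the 11th feature of IFI27, at -0.40 with siRNA 6 and 0 with siRNA 8.

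Markers of fibroblasts and of the line itself were read as ratios only, since levels are unknown. Of 6 fibroblast markers, 4 had a ratio and 1, COL1A1, was higher (0.51). Of the 7 neuroendocrine markers of the line, 3 had a ratio, with CHGA lower (-0.42), ENO2 higher (0.83) and CHGB at -0.37 with siRNA 6 and 2.03 with siRNA 8. Of 5 epithelial markers, 4 had a ratio, with EPCAM lower (-2.08) and KRT8 (1.33) and KRT19 (1.56) higher. Their part in the values of the interferon genes was not tested.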
